A study of Oryza sativa with 6 samples.

Results

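Loci annotated to the cytosolic ribosome or the nucleolus were examined in seedlings of indica rice, cultivar Pusa Basmati 1. A locus was a member when its Gene Ontology terms, the functional labels carried in the deposited tables, named the cytosolic ribosome, the nucleolus or the structural constituents of the ribosome, and named neither chloroplast nor thylakoid. This gave 134 members among the 6922 loci listed in either table, of which 73 had the structural ribosome term and are called ribosomal proteins below. The nucleolus term without the structural term was carried by 53 loci. These were divided into 10 assembly factors, whose process terms name rRNA processing or ribosome biogenesis, and 43 other nucleolar loci. The remaining 8 loci had only the cytosolic ribosome term. Of the 73 ribosomal proteins, 32 also carried the nucleolus term.

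The study comprised 6 libraries of total RNA from 5-week-old seedlings in 3 groups of 2. The groups were wild type, an over-expression of OsRDR3 and a group whose label is knock-down of OsRDR3, all in the same cultivar. By its name OsRDR3 belongs to the RDR family, whose enzymes build a second strand onto single-stranded RNA. The promoter of the transgene, the knock-down construct and the number of independent lines are not stated in the labels. The labels do not say whether replicates were separate plants, so a p-value measures at most the spread between these libraries, which may be technical. The authors compared each transgenic group with wild type in a table of its own, with 1 pooled FPKM value (fragments per transcript length and library total) per group and locus, and the same wild-type libraries served both tables. Over the 1714 loci listed in both, the wild-type value in the over-expression table was 1.04 times that in the other table, with a range of 1.04 to 1.05. Pooled values give no spread between replicates, and depth per library is unknown. A locus was called at the authors' Cuffdiff q under 0.05, q being the p-value adjusted for multiple testing. The tables list only loci with an unadjusted p of at most 0.05, so members that differed less are not analysed here, and counts are over listed loci.

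A polymerase locus was not lower in the group labelled knock-down. BGIOSGA002194, whose protein name is RNA-dependent RNA polymerase and which is not paired with the name OsRDR3 in the files, had 0.198 FPKM in wild type against 58.7 FPKM in over-expression by the authors' deposited table. The authors' deposited table with the libraries labelled knock-down gave it 0.1897 FPKM in wild type against 69.5 FPKM. Both transgenic groups were thus above wild type at this locus. Whether the locus is OsRDR3 is not given, so its level does not settle whether the label holds. Directions below refer to the libraries labelled knock-down, and no loss of OsRDR3 is assumed.

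A ribosome consists of a small subunit, which reads the messenger RNA, and a large subunit, which forms the peptide bonds. Ribosomal proteins are made in the cytoplasm, imported into the nucleus and joined to ribosomal RNA in the nucleolus, where assembly factors cut, modify and fold the precursor and then leave it. In plants most ribosomal proteins are encoded by small families of near-identical genes, and growing tissues use them most.

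At q under 0.05, 30 of the 64 listed ribosomal proteins rose in over-expression and 0 fell, and 62 of the 64 lay above wild type. The median of all listed loci in that table was a log2 fold change of 0.67. After centring on it the 30 called loci split into 22 higher and 8 lower, so the direction of those 8 was not kept. Only loci with an unadjusted p of at most 0.05 are listed. This median therefore depends on the mix of listed rises and falls and does not measure a scaling difference between libraries. Over all 64 listed ribosomal proteins the median log2 fold change was 0.69, with the middle 50% between 0.54 and 0.86. Of the 30 called ones 8 rose by at least 2-fold. Over all listed loci of the table the median was 0.67 and the middle 50% ran from -0.49 to 1.22. Among all listed loci in over-expression 37.9% were called higher, 13.6% lower and 51.5% in either direction, against 46.9%, 0% and 46.9% of the ribosomal proteins. The share called was therefore near that of all listed loci, and the median as well. All 30 called ribosomal proteins were higher before centring, against 1626 of the 2211 called loci of the whole table, or 1381 after centring.

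**Figure D1:**
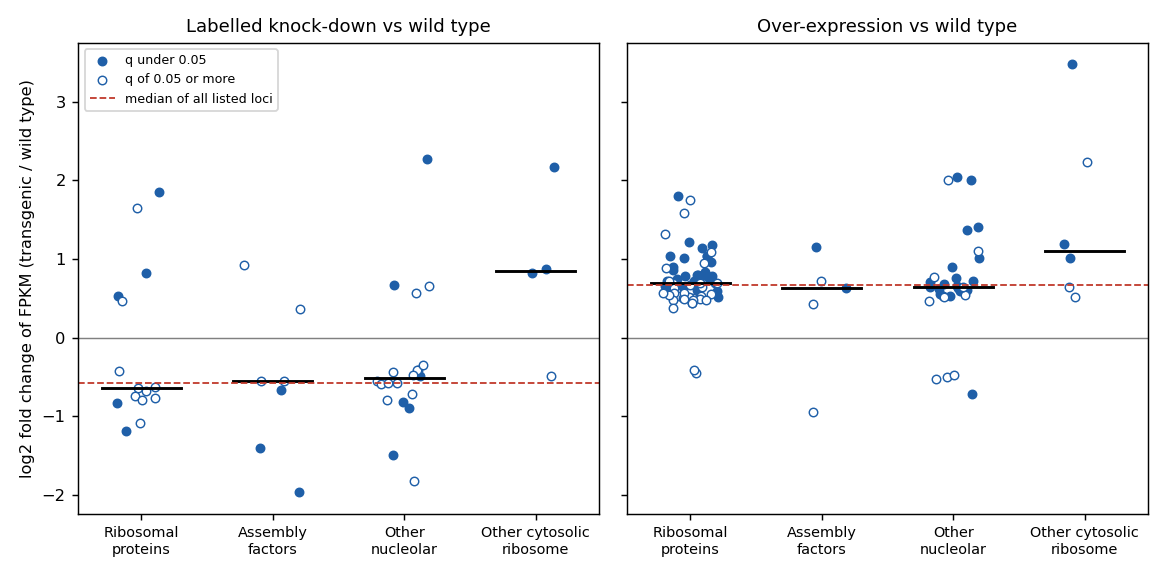
Log2 fold change of FPKM against wild type for each listed member by class, in the libraries labelled knock-down (left) and in over-expression (right). Filled points passed q under 0.05, black bars are class medians and the dashed line is the median of all 4341 (left, -0.58) or 4295 (right, 0.67) listed loci. On the right 62 of 64 ribosomal proteins lie above 0, many of them close to the dashed line, and 8 of the 30 called ones lie below it.

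Ribosomal proteins are abundant transcripts, so loci of similar level give a closer background. Among listed loci with at least 10 FPKM in wild type, 60.9% were called in over-expression, 33.6% higher and 27.3% lower, with a median log2 fold change of 0.37. Of the 51 ribosomal proteins at that level 27 rose and 0 fell, or 52.9%, with a median of 0.67. After centring on the median of all listed loci these 27 split into 19 higher and 8 lower. The smallest log2 fold change among the 27 was 0.52. These 27 were selected as called rises, while the median of 0.37 mixes 652 listed rises and 634 listed falls. That the smallest lies above 0.37 therefore shows nothing about the ribosomal proteins. In bulk seedlings, more cells with many ribosomes and more of these transcripts per cell cannot be told apart.

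Both subunits were represented. Of 31 listed loci assigned to the large subunit 19 rose, of 17 assigned to the small subunit 8 rose, and of 16 with no subunit given 3 rose, and 0 fell in each. The shares called higher were 61.3%, 47.1% and 18.8%, against 37.9% of all listed loci. The median log2 fold changes were 0.70, 0.63 and 0.69. With centring the called loci split into 14 higher and 5 lower, 5 and 3, and 3 and 0. A term or name placed 46 of the 64 loci in the cytosolic ribosome, all 46 were above wild type and 27 rose, or 19 with 8 lower after centring. The compartment was not given for the other 18, of which 3 rose. Called higher were thus 58.7% of the 46 and 16.7% of the 18, against the same 37.9%.

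The largest called rise among well-expressed ribosomal proteins was that of BGIOSGA009558, a locus on chromosome 3 from 38696976 to 38698674 with terms of the small subunit (coordinates here are those of the tables, whose genome build the labels do not give). It had 15.7 FPKM in wild type against 36.4 FPKM in over-expression by the authors' deposited table, a log2 fold change of 1.21 with a Cuffdiff q of 0.00192. The 60S ribosomal protein L13 locus BGIOSGA010380, a part of the large subunit (chromosome 3, 23911489 to 23913049), rose from 41.5 FPKM in wild type to 93.4 FPKM by the authors' deposited table, with q = 0.00105. A second L13 locus, BGIOSGA022059, rose from 20.0007 to 34.5 FPKM by the authors' deposited table, with q = 0.00614. Both listed genes of this protein thus moved the same way, and the more abundant one by more.

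Other named large-subunit proteins followed. The L15 locus BGIOSGA019532 rose from 6.81 to 13.2 FPKM by the authors' deposited table (q = 0.00105), while a further L15 locus did not pass. RPL11, whose protein binds ribosomal RNA, rose from 16.9 to 28.7 FPKM by the authors' deposited table (q = 0.0195). For L18a, BGIOSGA000819 rose from 21.5 to 37.2 FPKM by the authors' deposited table (q = 0.0127). Of the 3 listed L18a loci 2 rose, with log2 fold changes over the 3 from 0.50 to 0.79, so the lowest and highest members of the family bracketed the table's median. Loci with large-subunit terms and no protein name rose likewise. BGIOSGA029026 went from 41.4 to 83.3 FPKM and BGIOSGA008264 from 32.6 to 66.8 FPKM by the authors' deposited table, with q = 0.00105 and 0.00348. BGIOSGA001022 and BGIOSGA001903 had log2 fold changes of 1.04 and 1.04 by the authors' deposited table, with q = 0.0415 and 0.0437. All 4 of these at least doubled, and they lie on chromosomes 8, 2, 1 and 1.

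The most abundant called ribosomal protein was a small-subunit one. The 40S ribosomal protein S8 locus BGIOSGA015295, chosen for its level after its values were seen, rose from 82.4 to 136 FPKM by the authors' deposited table, with q = 0.00105. Both listed S8 loci rose, by 0.59 and 0.72 on the log2 scale. Centring on 0.67 leaves 1 of these on each side. S16 did not pass, and its locus RPS16A had 29.98 FPKM in wild type against 46.3 FPKM in over-expression by the authors' deposited table, with q = 0.0544. The locus of highest level among all listed ribosomal proteins, the L36 locus BGIOSGA019990, did not pass either, at 94.1 and 138 FPKM with q = 0.0579 by the authors' deposited table. Neither did the L32 locus BGIOSGA031035, with a log2 fold change of 0.69 and q = 0.128 by the authors' deposited table.

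**Figure D2:**
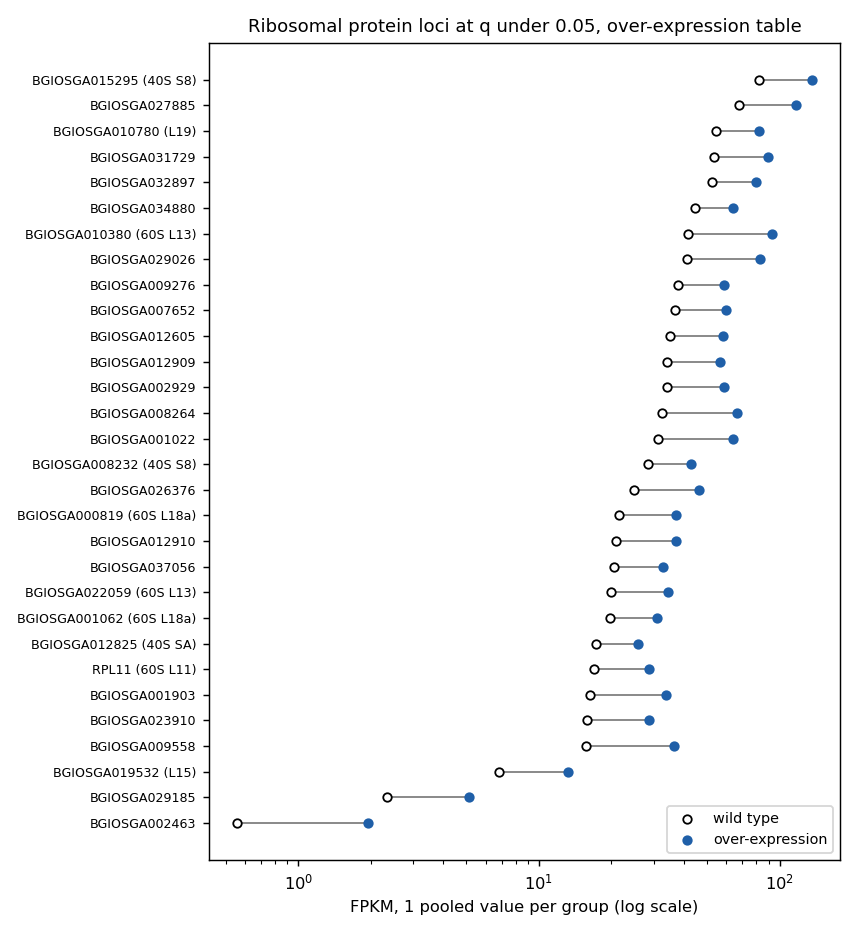
FPKM in wild type (open) and over-expression (filled) for the 30 ribosomal protein loci at q under 0.05, on a log scale, 1 pooled value per group. Every line runs to the right, from 0.559 to 1.94 FPKM at the bottom (BGIOSGA002463) to 82.4 to 136 FPKM at the top (BGIOSGA015295). Relative to the median of all listed loci 8 of the 30 would be lower.

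Loci with the term translational elongation were few. Of 3 listed in over-expression 2 rose. BGIOSGA002929 went from 34.1 to 59.0 FPKM by the authors' deposited table, with q = 0.0382. The exception, BGIOSGA021699, is named as the transcription elongation factor SPT5. It was 1 of the 2 listed ribosomal-class loci below wild type in over-expression. The other was BGIOSGA020149, which has endoplasmic reticulum, calcium-binding and unfolded-protein terms, at 10.9 and 8.03 FPKM by the authors' deposited table with q = 0.120. Neither passed, and neither carries a cytosolic ribosome term.

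**Figure D3:**
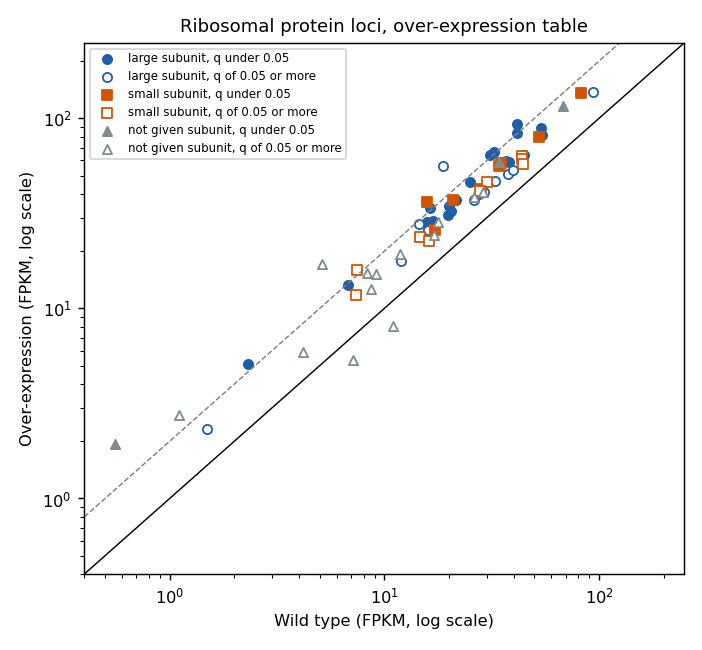
FPKM in wild type against over-expression for the 64 listed ribosomal protein loci, both axes on log scales, with subunits by shape and called loci filled. The solid line marks equal values and the dashed line a 2-fold rise. Points run parallel to the solid line over the range from 0.559 to 94.1 FPKM in wild type, and 2 loci with no subunit given lie below it. The table's own median is a log2 fold change of 0.67, between the lines.

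Several of these loci could share reads. Multiple gene names were attached to 8 members of the over-expression table, and for 3 such pairs both loci were listed. BGIOSGA012909 and BGIOSGA012910, which lie together within 14084 bases on chromosome 3, had log2 fold changes of 0.72 and 0.83 and both rose. The pair BGIOSGA031729 and BGIOSGA009276 had 0.74 and 0.64, and both rose, but the second was below 0 after centring, at -0.029. BGIOSGA009558 had 1.21, while its partner BGIOSGA000539 had 0.48 and did not pass. How reads of near-identical copies were divided is not given, so single copies are uncertain. When loci with several gene names were left out, 24 ribosomal proteins rose and 0 fell.

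In the libraries labelled knock-down the ribosomal proteins were divided. Of 15 listed loci 3 rose and 2 fell, with a median log2 fold change of -0.65 against -0.58 over all listed loci. Among all listed loci of those libraries 54.3% were called, 17.6% higher and 36.7% lower, against 20% higher and 13.3% lower of these 15. Among listed loci with at least 10 FPKM in wild type, 72% were called, 8.82% higher and 63.2% lower, while of 10 ribosomal proteins at that level 2 rose and 2 fell. Centring left these calls at 3 higher and 2 lower. With 5 called loci such shares are coarse.

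The 3 that rose there were also called higher in over-expression, a comparison that shares the wild-type libraries. L13 (BGIOSGA010380) rose from 39.8 to 57.5 FPKM there by the authors' deposited table, with q = 0.0368, a smaller rise than its 1.17 on the log2 scale in over-expression, at 0.53. That difference between the 2 groups was not tested. BGIOSGA008264 rose from 31.2 to 55.0 FPKM by the authors' deposited table (q = 0.0159), and BGIOSGA002463, with ribosome terms only, from 0.536 to 1.92 FPKM (q = 0.00408). The last had nearly the same value in over-expression, 1.94 FPKM against 0.559 in wild type, by the authors' deposited table. With a pseudocount of 1 FPKM its log2 fold changes became 0.93 and 0.92, since wild type is low.

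Of the 2 that fell, neither had a cytosolic ribosome term. BGIOSGA019946, a translational elongation locus and the most abundant ribosomal protein listed in this table, fell from 83.6 to 47.0 FPKM by the authors' deposited table, with q = 0.000868. BGIOSGA020149, the endoplasmic reticulum locus described above, fell from 10.5 to 4.62 FPKM by the authors' deposited table, with q = 0.000868. Among loci placed in the cytosolic ribosome, 2 of 7 rose and 0 fell. These are 28.6% and 0%, against 17.6% and 36.7% of all listed loci, and coarse with 7 loci. RPL10A, a large-subunit protein also annotated to leaf adaxial and abaxial patterning, did not pass, at 13.5 and 8.60 FPKM with q = 0.0821 by the authors' deposited table. BGIOSGA010251 was the 1 ribosomal protein with a mitochondrial term, and it did not pass.

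Few assembly factors were listed. In the libraries labelled knock-down 3 of 7 fell, or 42.9%, near the 36.7% of all listed loci, and 0 rose, with a median log2 fold change of -0.56, near the -0.58 of all listed loci. MPP10 (BGIOSGA034540), a part of the U3 small nucleolar ribonucleoprotein that in yeast acts in small-subunit precursor processing, fell from 1.57 to 0.598 FPKM by the authors' deposited table, with q = 0.0298. BGIOSGA036672, with the same complex and rRNA processing terms, fell from 1.06 to 0.271 FPKM by the authors' deposited table, with q = 0.0139. The better expressed EIF6 (BGIOSGA026234), translation initiation factor 6, which in yeast and mammals is needed for large-subunit formation and keeps that subunit from joining the small one early, fell from 15.2 to 9.53 FPKM by the authors' deposited table, with q = 0.0459. The 3 stayed lower after centring, and 0 of them passed q under 0.01. MPP10 and BGIOSGA036672 lie under 2 FPKM in each group, where a pseudocount of 1 shrinks their log2 fold changes to -0.69 and -0.70.

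In over-expression 2 of 5 listed assembly factors rose, or 40% against 37.9% of all listed loci, and 0 fell. NUG2, a nucleolar GTPase whose yeast counterpart acts in large-subunit maturation, rose from 15.6 to 24.1 FPKM by the authors' deposited table, with q = 0.00789, but turned to -0.044 after centring. BGIOSGA001536, with large-subunit and ribosome biogenesis terms, rose from 5.77 to 12.9 FPKM by the authors' deposited table, with q = 0.0306, and stayed higher. Homologs of Pescadillo and WDR12, which in mammals form a complex for large-subunit maturation, had log2 fold changes of 0.43 and 0.72 and did not pass, with q = 0.140 and 0.143 by the authors' deposited table. BGIOSGA036672 was also below wild type here without passing, at 1.11 and 0.574 FPKM with q = 0.107 by the authors' deposited table.

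The other nucleolar loci carry the nucleolus term without a process term of ribosome assembly. The class rests on that term alone. Some of its loci are named as proteins of other sites, such as a tubulin and a pyruvate dehydrogenase subunit, so its shares are not a result about the nucleolus. In over-expression 19 of 30 listed rose and 1 fell, or 63.3% and 3.33%, against 37.9% and 13.6% of all listed loci. Their median was 0.64 against 0.67, and after centring 10 were higher and 10 lower. The largest called rise was that of a beta-tubulin (BGIOSGA011667), the building block of microtubules, from 2.44 to 10.05 FPKM by the authors' deposited table (q = 0.00105). Proliferating cell nuclear antigen (BGIOSGA009238), the ring that holds DNA polymerase on its template, rose from 4.20 to 11.1 FPKM by the authors' deposited table (q = 0.00105). BGIOSGA019704, with fatty acid beta-oxidation terms, rose from 3.62 to 9.37 FPKM by the authors' deposited table. Protein kinase G11A (BGIOSGA021418) had a log2 fold change of 1.01 by the authors' deposited table, and of 4 listed kinases with the nucleolus term 3 rose, or 2 with 1 lower after centring. The 3 listed loci with protein folding and heat response terms rose, among them BGIOSGA015767 from 0.360 to 1.45 FPKM by the authors' deposited table (q = 0.0122), and centring turned 1 of them lower. The 1 that fell was BGIOSGA035853, with helicase and group II intron splicing terms, from 9.19 to 5.60 FPKM by the authors' deposited table (q = 0.0136), named because it was the only fall. Just outside the threshold, the deubiquitinase gene UBP26 had q = 0.0508, and just inside it was the ribosomal protein BGIOSGA009276 with q = 0.0496, both by the authors' deposited table.

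In the libraries labelled knock-down 2 of 20 other nucleolar loci rose and 4 fell, or 3 and 3 after centring. These are 10% and 20%, against 17.6% and 36.7% of all listed loci. BGIOSGA015767 rose from 0.344 to 1.66 FPKM and BGIOSGA031108, with RNA helicase and RNA methylation terms, from 12.9 to 20.5 FPKM by the authors' deposited table, with q = 0.00228 and 0.00160. BGIOSGA010733, with nucleolus and membrane terms, fell from 5.73 to 2.03 FPKM by the authors' deposited table, with q = 0.000868. BGIOSGA032007, an RNA-binding locus with an auxin homeostasis term, and the kinase BGIOSGA008959 had log2 fold changes of -0.90 and -0.82 by the authors' deposited table. The least of the falls was that of the mitochondrial pyruvate dehydrogenase subunit BGIOSGA031063, at -0.49 with q = 0.0473 by the authors' deposited table, which turned to 0.092 after centring. The nuclear pore protein BGIOSGA010736, at -0.55, was the nearest one outside the threshold, with q = 0.0624 by the authors' deposited table.

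The loci with only the cytosolic ribosome term were largely enzymes of other compartments. In over-expression 3 of 6 rose and 0 fell, or 50% higher against 37.9% of all listed loci. All 3 carry cell wall and O-glycosyl hydrolase terms, and they are not ribosomal proteins by any other term. BGIOSGA009966 rose from 0.394 to 4.38 FPKM, BGIOSGA008343 from 17.4 to 39.5 FPKM and BGIOSGA003613 from 4.54 to 9.11 FPKM by the authors' deposited table, with q = 0.00192, 0.00105 and 0.00105. In the libraries labelled knock-down 3 of 4 rose and 0 fell, or 75% higher against 17.6% of all listed loci. With so few listed loci these shares are coarse. BGIOSGA009966 rose from 0.377 to 1.70 FPKM there by the authors' deposited table (q = 0.00870). BGIOSGA026304, also a hydrolase of the cell wall, and BGIOSGA037751, with the term of methylcrotonoyl-CoA carboxylase in leucine breakdown, had log2 fold changes of 0.82 and 0.87 by the authors' deposited table. The 3 called in over-expression stayed higher after centring. In the libraries labelled knock-down centring raises every value, so it could not turn a rise.

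Both tables listed 17 of the 134 members, a smaller share than the 1714 of all 6922 listed loci, with the wild-type libraries in common. Calls in both tables and opposite signs were not counted over the 1714, so the counts below have no background. BGIOSGA002463, BGIOSGA008264, BGIOSGA010380, BGIOSGA009966 and BGIOSGA015767 were higher and called in each table, which is no independent support since the wild type is shared. Opposite signs were seen at the beta-tubulin locus BGIOSGA011667, at -0.80 in the libraries labelled knock-down (q = 0.130) and 2.04 in over-expression by the authors' deposited tables. The S-adenosylmethionine synthetase locus BGIOSGA019139, the most abundant nucleolar-class locus, had -0.35 and 0.54 and passed in neither table, with q = 0.178 and 0.0533 by the authors' deposited tables. BGIOSGA029496, with large-subunit terms, had -0.74 and 0.57 and passed in neither. The kinase BGIOSGA008959, called only in the libraries labelled knock-down, had -0.82 and 0.52, and BGIOSGA019745, with the cytosolic ribosome term, had -0.49 and 0.51 and passed in neither. Centring turned the values of BGIOSGA019139 and BGIOSGA019745 in both tables, and those of BGIOSGA029496 and BGIOSGA008959 in over-expression. The differences between the tables were not tested.

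**Figure D4:**
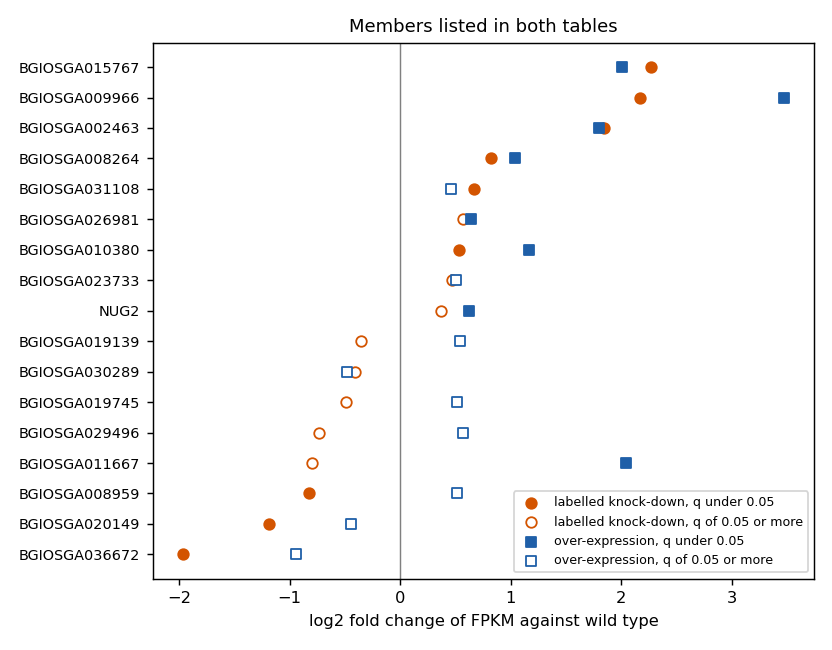
Log2 fold change of FPKM against the shared wild type for the 17 members listed in both tables, circles for the libraries labelled knock-down and squares for over-expression, filled at q under 0.05. The 5 loci with both symbols filled lie to the right of 0, and BGIOSGA011667 shows the widest gap, from -0.80 to 2.04. No centring is applied here.

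What the members share beyond the rule was looked at in the tables' other columns. The 46 cytosolic ribosomal protein loci of the over-expression table had a median transcript span of 1502 bases, against 3040 over all listed loci. All members had 1892 there, but 3298 in the libraries labelled knock-down, against 2795 over all listed loci of those libraries. Short spans were not particular to the members. In over-expression plastid ribosomal proteins, which are no members, had 1897 and thylakoid membrane loci 1954. Chromosome 3 held 30 of the 134 members, or 22.4%, against 14.6% of all listed loci. On this chromosome 5 nucleolar members lay between 14700461 and 14859639, picked out after their positions were seen. These were BGIOSGA010736, BGIOSGA010733, BGIOSGA010732, BGIOSGA010727 and NUG2. BGIOSGA010733 fell in the libraries labelled knock-down. Its neighbour BGIOSGA010732 rose from 8.52 to 12.3 FPKM in over-expression by the authors' deposited table, with q = 0.0486, and turned lower after centring. BGIOSGA010727 did not pass in the libraries labelled knock-down, with q = 0.142 by the authors' deposited table.

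Other genes of protein synthesis, none of them members, were counted in the same way. Plastid ribosomal proteins were mostly higher in over-expression, with 21 of 36 listed rising and 2 falling, or 12 higher and 11 lower after centring. In the libraries labelled knock-down 2 of 18 rose and 2 fell, and centring turned all 4 higher. Translation initiation factors had 2 rises and 2 falls among 9 listed in over-expression, and 0 rises and 5 falls among 11 in the libraries labelled knock-down, of which centring left 4 lower. Translation elongation factors, which deliver transfer RNA and move the ribosome along, had 5 rises and 2 falls among 11, and 0 and 3 among 5, or 2 and 5, and 2 and 1, after centring. The ligases that charge transfer RNA with amino acids went the other way from the ribosomal proteins in over-expression. Of 9 listed 0 rose and 6 fell, with an uncentred median of -0.49. Centring lowers every value in over-expression, so it could not change this split. In the libraries labelled knock-down 0 of 12 rose and 5 fell, or 2 and 3 after centring.

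Loci with rRNA processing or ribosome biogenesis terms outside the members were largely plastid ones. In over-expression 4 of 58 rose and 29 fell, 48 of the 58 having chloroplast or thylakoid terms, and in the libraries labelled knock-down 0 of 63 rose and 50 fell, 56 of them plastid. Centring gave 2 and 31, and 4 and 46. Without plastid terms 1 of 10 rose and 2 fell in over-expression, and 0 of 7 rose and 4 fell in the libraries labelled knock-down, which centring changed to 0 and 3, and 1 and 3. RNA polymerase I or III loci numbered 2 in each table, with 0 called. Nuclear pore and import loci had 2 rises and 1 fall among 8 in over-expression and 0 and 2 among 9 in the libraries labelled knock-down, and RNA helicases 0 rises and 1 fall among 3 in each, all unchanged in split after centring.

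Markers of tissue make-up moved in the same tables. Replication and nucleosome loci, which mark dividing tissue, had 25 rises and 2 falls among 47 listed in over-expression, with a summed level of 613 FPKM in wild type and 1023 FPKM in over-expression, and centring gave 23 and 4. In the libraries labelled knock-down 1 of 28 rose and 11 fell, from a sum of 694 to 412 FPKM, with the same split after centring. Thylakoid membrane loci, which mark green leaf, had 6 rises and 53 falls among 108 listed in over-expression and 2 and 107 among 129 in the libraries labelled knock-down, and centring gave 4 and 55, and 4 and 105. Their summed level went from 28763 to 18518 FPKM and from 40445 to 13683 FPKM. Of 9 root markers 0 were listed in over-expression and 2 in the libraries labelled knock-down, of which 1 rose, and of 9 floral markers 0 were listed in either. These markers were sought by gene symbol only, and most members carry no symbol. A marker counted as not listed may be present without its symbol, so these counts do not show that root or floral genes were unchanged. Over the 64 ribosomal proteins listed in over-expression the summed level went from 1670 to 2717 FPKM. All loci of that table summed to 253736 FPKM in wild type and 349017 FPKM in over-expression. The sums of the other table were 157366 FPKM for wild type and 140675 FPKM for its transgenic group. Every sum here covers only loci listed at an unadjusted p of at most 0.05. As 62 of the 64 lay above wild type, their higher sum follows largely from which loci are listed. The replication and thylakoid lists differ in size between the tables, so their sums are not comparable across them. The part of dividing and green tissue in the ribosomal protein values was not tested. No locus was listed at 0.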

How the data were processed

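The deposited files are 2 tables, each setting 1 transgenic group against wild type. The authors used Cufflinks 2.2.1 and Cuffdiff, per the submitters' processing notes. The FPKM values were pooled by the authors to 1 value for a group at each locus, as the file headers show. Recomputing the deposited log2 values as transgenic over wild-type FPKM, with no pseudocount, gave the same numbers within 1.68e-05. The p-values and q-values are those the authors deposited. No aligner, genome build or Cuffdiff version is given in the sources used here. Unassigned columns of single libraries: there were 0.

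Members were sorted and counted with pandas 2.3.3 in Python 3.11.15, and the counting was tested on simulated data. No test was added, since pooled values allow none. Centring subtracted each table's median log2 fold change. It lowered every value in over-expression and raised every value in the libraries labelled knock-down. Falls in over-expression and rises in the libraries labelled knock-down therefore could not turn, and their keeping direction is no support. Since only loci with an unadjusted p of at most 0.05 are listed, the subtracted median is not a normalization of the libraries. The members, lists and classes were chosen with earlier results of these data known.

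Named genes were members listed in both tables, up to 25 called members per table by size of change with at least 1 FPKM in the higher group, members with a symbol, the most abundant member of each class, and those nearest the threshold. Outside this rule, BGIOSGA000539, BGIOSGA010251, BGIOSGA010727, BGIOSGA010732, BGIOSGA012909, BGIOSGA015295, BGIOSGA021699, BGIOSGA031729 and BGIOSGA035853 were chosen after their values were seen. A RefSeq gene table matched 3 of the 134 members and was not used. Alternatives were q under 0.01, centring, pseudocounts of 1 and 0.1, a minimum of 1 FPKM and loci with 1 gene name. The cytosolic subset was added after the data were seen.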

Additional observations from a re-analysis of the deposited data

How the results depend on the processing

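Neither the minimum of 1 FPKM nor leaving out loci with several gene names moved a count of called members by over 1.5 times. At q under 0.01, 23 members were higher and 0 lower in over-expression, 11 of the higher ones ribosomal proteins. In the libraries labelled knock-down 5 were higher and 3 lower at that threshold, with 1 ribosomal protein higher and 2 lower. Centring gave 19 lower members in over-expression, 8 of them ribosomal proteins. With the cytosolic subset 0 ribosomal proteins fell in the libraries labelled knock-down. A pseudocount of 1 moved the medians of all members and of ribosomal proteins to 0.62 and 0.66 in over-expression and to -0.43 and -0.56 in the libraries labelled knock-down. Centring moved them to -0.00069 and 0.020, and to 0.035 and -0.065.

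After centring, BGIOSGA010736, BGIOSGA019139, BGIOSGA019745, BGIOSGA030289 and BGIOSGA031063 turned to 0.035, 0.23, 0.10, 0.18 and 0.092 in the libraries labelled knock-down. In over-expression BGIOSGA008959, BGIOSGA009276, BGIOSGA019139 and BGIOSGA019745 turned to -0.15, -0.029, -0.13 and -0.16. BGIOSGA019990, BGIOSGA023733, BGIOSGA026981 and BGIOSGA029496 turned to -0.12, -0.17, -0.033 and -0.10, and BGIOSGA031108, NUG2 and RPS16A to -0.21, -0.044 and -0.043. These reversals follow from the subtraction itself. The pseudocounts reversed none of the named values.

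No paired analysis was possible because each group has 1 pooled value per locus, and for the same reason leaving out a replicate was not run. Without counts, what depth limits is unknown.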
